A study of Homo sapiens with 4 samples.

Results

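The genes of the cytosolic translation factors were followed through a map of GapR-GFP in the human colorectal carcinoma line HCT116. They were chosen by name and not by any measured value, as the autosomal protein-coding RefSeq genes on hg38 whose symbols begin with EIF1 to EIF6, EEF1 or EEF2. The kinases EEF2K and EIF2AK1 to EIF2AK4 were left out. This gave 62 genes among 19122 autosomal protein-coding genes. The name also brings in regulators and enzymes that are not translation factors themselves, namely the EIF4EBP genes, EIF4ENIF1, EIF1AD, EEF1E1 and the methyltransferases of the elongation factors.

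GapR is a bacterial protein that binds overtwisted, positively supercoiled DNA, and CUT&RUN releases the DNA next to a protein held by an antibody, here against the GFP tag. Of the 4 libraries, 2 carried wild-type GapR-GFP (WT) and 2 were labelled MT. The series design describes MT as a mutant GapR-GFP, while the genotype label of the MT libraries is a double knockout of TOP2A and TOP2B and that of the WT libraries is wildtype. The treatment label of all 4 libraries is palbociclib, an inhibitor of CDK4/6, at 2 µM for 28 h for arrest in G1, whereas the series design calls the cells asynchronous. The files did not settle either conflict, and no source used here gives how the fusion was expressed. Each of the 2 peak lists was called by the authors from 1 WT library (WT replicate 1 with 21774260 fragments after filtering, WT replicate 2 with 27443146), with MT replicate 1 (23356540 fragments) as control. MT replicate 2 entered no list and was not analysed here. Both lists therefore share their control, and no test between WT and MT can be made from them. Nothing says that the WT replicates came from separate cultures. TOP2A had 1 replicated summit (defined next) and TOP2B had 3, which says nothing of the genotype of MT. Peaks do not measure expression, but 6 of 9 colorectal epithelial marker genes had a replicated summit, against 2 of 12 markers of liver, muscle, immune cells and neurons. The share of the epithelial markers, 66.7%, was close to that of all autosomal protein-coding genes, 68.8%, and so does not set them apart. EPCAM, CDH1, KRT8, KRT18, CDX2 and CDH17 were the 6, and VIL1 and CDX1 had no summit in either list.

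Initiation begins when EIF2 brings the initiator tRNA to the small ribosomal subunit, with EIF1, EIF5 and the large EIF3 complex. The EIF4 factors bind the cap of the mRNA and unwind its leader. EIF2B recharges EIF2 with GTP, and this step is the target of the stress kinases. In elongation, EEF1A delivers the aminoacyl-tRNA, the EEF1B complex recharges it, and EEF2 moves the ribosome along. Many of these genes are transcribed at high rates in growing cells, and transcription overtwists the DNA ahead of the polymerase.

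A replicated summit is the summit of a WT replicate 1 peak that overlaps a WT replicate 2 peak by at least 1 bp. The fold enrichment is the authors' value, WT over the local MT level, with 1 added to both, and a gene's highest fold is taken in each list separately. Such summits lay in or up to 5 kb from 56 of the 62 translation factor genes (90.3%), and from 68.8% of all autosomal protein-coding genes. In the list of WT replicate 1 alone 60 of the 62 had a summit, where the share of all genes was 79.5%, and in that of WT replicate 2 alone 57 had one, where it was 70.5%. Their folds lay close to those of all genes. The median highest fold of the 56 genes was 8.23 (WT replicate 1) and 6.26 (WT replicate 2), beside 8.01 and 6.04 over all genes with a replicated summit, and 29 of the 56 lay above that median in each list. The highest folds ran from 3.46 to 11.9 in WT replicate 1 and from 2.87 to 12.5 in WT replicate 2. WT replicate 1 gave the higher value at 49 of the 56 genes. The median length of the 62 genes was 18 kb, and that of all genes 24.5 kb.

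**Figure D1:**
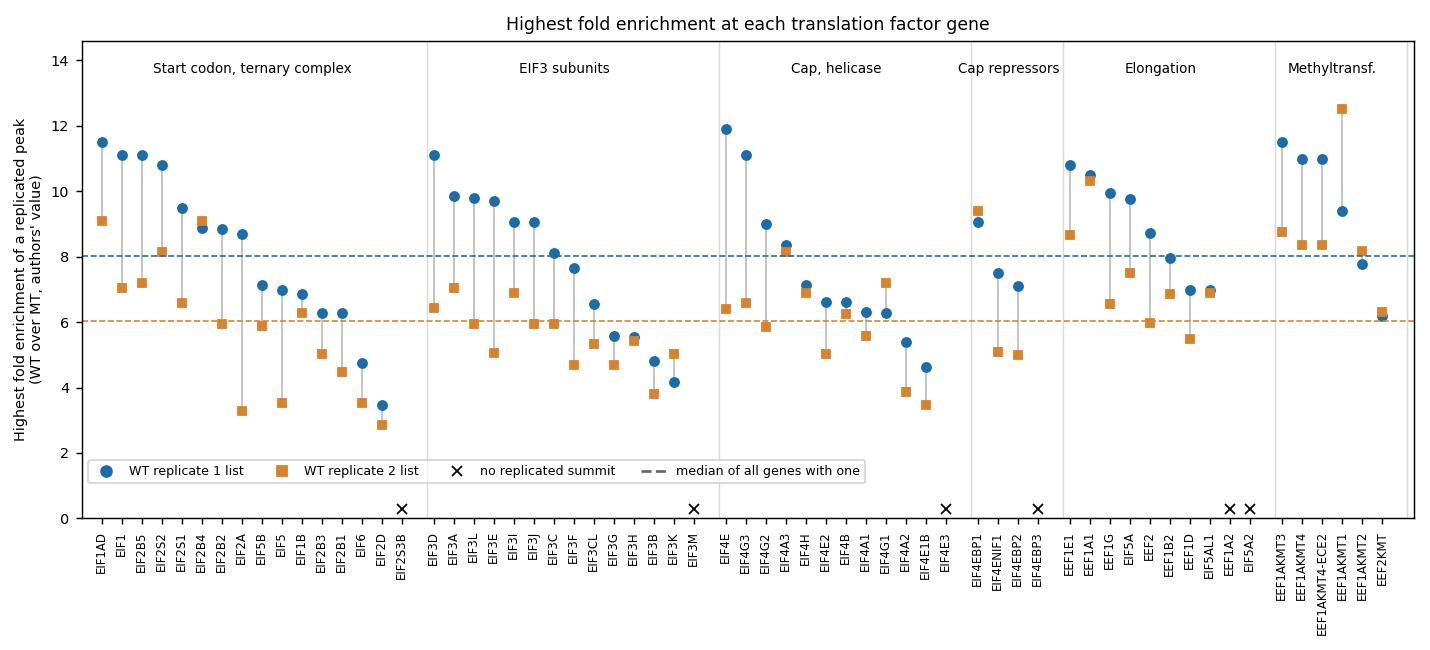
Each of the 56 translation factor genes with a replicated summit has a circle for its highest fold enrichment (WT over MT) in WT replicate 1 and a square for that in WT replicate 2, on the y axis, with the genes along the x axis by role. Crosses mark the 6 genes without one, and the dashed lines are the medians of all genes with one, 8.01 and 6.04. All 6 methyltransferase genes lie above 6.04 in WT replicate 2, and every other role has genes on both sides of each line.

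The promoters that held a replicated summit are shown here, because 48 of the 62 genes (77.4%) had a replicated summit within 1 kb of a start or, where none was annotated, a gene boundary. Over all genes the shares were 53.0% of those with an annotated start and 41.8% of those without. Promoter sequences came from RefSeq (GRCh38.p14) and run from 250 bases before to 50 bases after an annotated start, so that the start follows base 250. Of the 62 genes, 49 had such an entry. At 8 of these 49 the summit itself fell in a promoter window, and 6 of these 8 are given. That count only chose the sequences, and no share of all genes stands beside it. Capitals mark any match to 8 promoter motifs, searched on both strands, and a match on the other strand appears as its reverse complement. The motifs are the TATA box (TATAAA), the CCAAT box, the GC box (GGGCGG), the E-box (CACGTG), the ETS core (CCGGAAG), the CRE (TGACGTCA) and the NRF1 and YY1 motifs.
EIF1AD, chr11:66002108-66002407, minus strand: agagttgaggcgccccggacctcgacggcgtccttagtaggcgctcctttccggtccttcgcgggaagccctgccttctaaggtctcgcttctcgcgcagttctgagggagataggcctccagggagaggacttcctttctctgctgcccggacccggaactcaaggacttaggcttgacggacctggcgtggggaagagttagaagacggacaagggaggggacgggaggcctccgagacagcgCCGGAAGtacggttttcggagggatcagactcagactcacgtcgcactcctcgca
EIF2B4, chr2:27369976-27370275, minus strand: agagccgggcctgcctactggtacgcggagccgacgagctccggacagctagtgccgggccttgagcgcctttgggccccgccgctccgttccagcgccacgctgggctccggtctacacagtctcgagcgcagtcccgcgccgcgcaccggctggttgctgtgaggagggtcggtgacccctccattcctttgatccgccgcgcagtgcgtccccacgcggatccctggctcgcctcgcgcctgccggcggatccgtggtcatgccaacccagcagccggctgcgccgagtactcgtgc
EIF2B5, chr3:184135108-184135407, plus strand: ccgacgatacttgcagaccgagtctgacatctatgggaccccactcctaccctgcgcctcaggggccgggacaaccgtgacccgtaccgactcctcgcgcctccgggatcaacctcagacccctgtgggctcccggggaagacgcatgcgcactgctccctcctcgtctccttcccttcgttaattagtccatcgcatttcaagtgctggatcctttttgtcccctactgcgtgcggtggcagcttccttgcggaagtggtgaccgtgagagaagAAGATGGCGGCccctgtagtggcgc
EEF1B2, chr2:206159645-206159944, plus strand: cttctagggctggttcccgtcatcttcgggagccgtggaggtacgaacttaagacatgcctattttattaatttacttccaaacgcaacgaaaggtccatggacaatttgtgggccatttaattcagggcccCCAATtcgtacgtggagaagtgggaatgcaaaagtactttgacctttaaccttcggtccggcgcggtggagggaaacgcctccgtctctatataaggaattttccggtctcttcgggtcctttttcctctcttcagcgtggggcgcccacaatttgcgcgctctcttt
EEF1AKMT2, chr10:124791838-124792137, minus strand: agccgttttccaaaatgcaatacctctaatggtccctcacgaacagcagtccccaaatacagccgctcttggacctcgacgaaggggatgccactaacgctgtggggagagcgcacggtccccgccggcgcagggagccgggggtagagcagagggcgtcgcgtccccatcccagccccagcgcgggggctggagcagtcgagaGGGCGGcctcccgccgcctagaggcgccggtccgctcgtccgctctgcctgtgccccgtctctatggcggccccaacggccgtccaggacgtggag
EIF2S1, chr14:67360078-67360377, plus strand: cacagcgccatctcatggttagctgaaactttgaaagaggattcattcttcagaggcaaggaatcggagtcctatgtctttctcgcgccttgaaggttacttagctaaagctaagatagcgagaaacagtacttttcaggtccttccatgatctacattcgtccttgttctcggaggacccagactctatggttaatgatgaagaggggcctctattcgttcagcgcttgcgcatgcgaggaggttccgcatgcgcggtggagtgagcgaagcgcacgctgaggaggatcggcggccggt

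In these 6 sequences the WT replicate 1 summit lay 182 bp before the start of EIF1AD, 177 bp before that of EIF2B4 and 207 bp before that of EIF2B5. It lay 142 bp before the start of EEF1B2, 209 bp before that of EEF1AKMT2 and 186 bp before that of EIF2S1. EIF2B4 has more than 1 annotated start, and from the nearest of them its summit lay 136 bp inside the gene. The marked motifs were the ETS core in EIF1AD, the YY1 motif in EIF2B5, the CCAAT box in EEF1B2 and the GC box in EEF1AKMT2. The WT replicate 2 summit at EIF2B4 lay 569 bp from that of WT replicate 1. The windows of EIF2B4 and EIF2S1 held none of the 8.

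For contrast, the longest genes with a promoter entry and no replicated summit were EIF4E3, a cap-binding paralogue, and EIF3M, a subunit of EIF3.
EIF4E3, chr3:71754724-71755023, minus strand: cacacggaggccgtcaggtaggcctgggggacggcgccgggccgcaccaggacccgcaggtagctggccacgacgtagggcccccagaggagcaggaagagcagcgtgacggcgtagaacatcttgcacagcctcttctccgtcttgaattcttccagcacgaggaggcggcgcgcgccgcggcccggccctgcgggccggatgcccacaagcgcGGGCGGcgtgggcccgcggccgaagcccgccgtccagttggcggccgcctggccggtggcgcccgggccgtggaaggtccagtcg
EIF3M, chr11:32583581-32583880, plus strand: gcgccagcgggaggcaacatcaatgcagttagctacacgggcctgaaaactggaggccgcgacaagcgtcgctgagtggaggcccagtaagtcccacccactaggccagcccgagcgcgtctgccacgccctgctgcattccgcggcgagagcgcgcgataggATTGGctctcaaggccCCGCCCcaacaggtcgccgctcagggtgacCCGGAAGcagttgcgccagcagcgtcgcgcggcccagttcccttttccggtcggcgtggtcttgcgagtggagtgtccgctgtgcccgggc
G and C made up 74.0% of the window of EIF4E3 and 67.7% of that of EIF3M. In the 6 windows with a summit the share ran from 50% in EEF1B2 to 71.3% in EIF2B4. Over the 49 promoters the median share of G and C was 63.7% for the 36 genes with a replicated summit within 1 kb of a start and 65.0% for the 13 without, beside 62.7% over 15100 genes.

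The E-box CACGTG, the site known for MYC with MAX and for related factors, was in a promoter window of 13 of the 49 genes (26.5%), beside 8.71% of 15100 genes. It was picked out of the 8 motifs after the counts were seen, and 2 of the 13 entries, EEF1AKMT4 and its readthrough gene EEF1AKMT4-ECE2, share 1 window. Of the other motifs, the GC box was in 38 of the 49 (77.6%, beside 58.7%), the ETS core in 13 (26.5%, beside 14.3%) and the CCAAT box in 21 (42.9%, beside 36.0%). The TATA box was in 3 of the 49 (6.12%, beside 9.83%), the YY1 motif in 2 (4.08%, beside 1.37%), the CRE in 1 (2.04%, beside 2.62%) and the NRF1 motif in 0 (beside 1.78%). Matches to different motifs may overlap. These counts are not limited to the windows printed above: EEF1B2 counts for the ETS core, which its printed window does not hold. A match describes letters and is not evidence of binding. The E-box of 6 of these genes, the first where there are several, is shown in capitals with 12 bases on either side, for the cap-binding factor, its scaffold, a helicase-family member, a helicase cofactor, an EIF3 subunit and a gene with no replicated summit.
EIF4E, chr4:98929341-98929370, minus strand: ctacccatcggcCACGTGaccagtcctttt
EIF4G1, chr3:184314450-184314479, plus strand: ggctgtggctgtCACGTGacggggcggggg
EIF4A3, chr17:80147232-80147261, minus strand: ccagttccctttCACGTGacgaagagtgcc
EIF4B, chr12:53006422-53006451, plus strand: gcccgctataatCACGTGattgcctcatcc
EIF3F, chr11:7987257-7987286, plus strand: aaagctctagctCACGTGgtgtatattcag
EIF5A2, chr3:170908807-170908836, minus strand: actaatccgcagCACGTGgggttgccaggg
The E-box began 225 bases before the start in EIF4E, 144 in EIF4G1, 121 in EIF4A3, 22 in EIF4B, 68 in EIF3F and 187 in EIF5A2. Of the 13 genes with an E-box, 10 had a replicated summit within 1 kb of a start. Of all 49, 36 did, beside 53.0% of 15100 genes. The start with the summit need not be the start with the E-box. In EIF4G1 that summit lay 5465 bp from the gene boundary, at a start further inside the gene than the one by the E-box.

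Among the 49 genes with an annotated start, 36 (73.5%) had a replicated summit within 1 kb of one, and 53.0% of 15100 autosomal protein-coding genes did. For the 13 genes without a promoter entry either boundary was used instead, and 12 of the 13 had a replicated summit within 1 kb of a boundary (41.8% of such genes overall). The summits tended to lie before the start. Of 39 replicated summits within 1 kb of a start, 25 (64.1%) lay before it, at a median position of -209 bp (quartiles -387 and 111 bp, negative before the start). Over all genes 51.6% lay before it, at a median of -83 bp. The step from 500 to 250 bp before the start held 26.5 summits per 100 translation factor genes and 13 per 100 of all genes, and the step just inside the gene held 16.3 and 19.0. These are 13 and 8 summits of 49 genes, described here without a test.

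**Figure D2:**
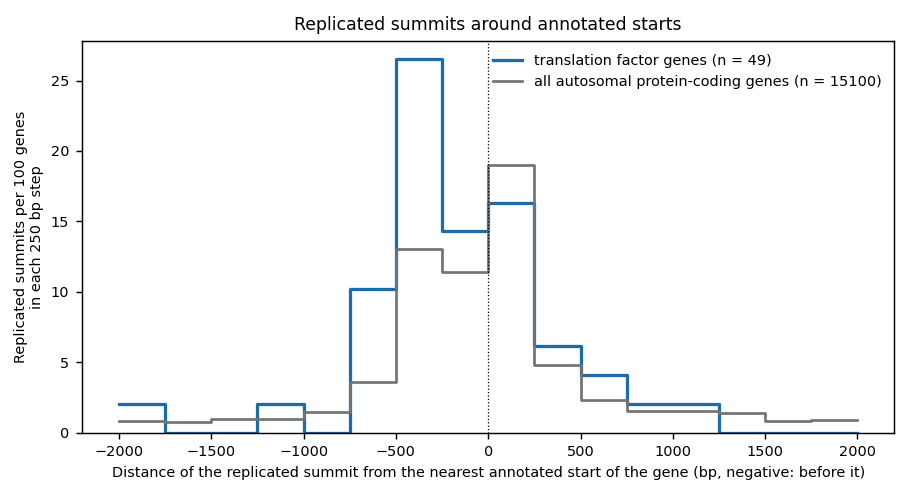
The y axis gives replicated summits per 100 genes in steps of 250 bp, and the x axis the distance from the nearest annotated start in bp, negative before it. The translation factor line (49 genes) is highest from 500 to 250 bp before the start, at 26.5, and the line of all 15100 genes is highest in the step just inside the gene, at 19.0.

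Start codon selection and the initiator tRNA came first in order of action, and 15 of these 16 genes had a replicated summit, beside 68.8% of all genes. At 14 of the 16 it lay within 1 kb of a start or boundary. Over all genes this held for 53.0% of those with an annotated start and 41.8% of those without. EIF1, which guards the choice of start codon, had a WT pileup (fragments over the summit) of 31 for WT replicate 1 and 23 for WT replicate 2 at a peak 368 bp before its start, where the local MT level was 1.87 and 2.41. Both WT libraries stood far above MT there, with folds of 11.1 and 7.03. Its paralogue EIF1B had 6.87 and 6.27 at a summit 119 bp inside the gene. EIF1AD, a gene known for ribosome maturation, had 11.5 and 9.08, and ranked first among the 62 genes when each gene was placed by the worse of its ranks in the lists.

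EIF2S1, the alpha subunit of EIF2 that stress kinases phosphorylate, had pileups of 35 for WT replicate 1 and 21 for WT replicate 2 at its start, over MT levels of 2.80 and 2.35, with folds of 9.48 and 6.57. EIF2S2, the beta subunit, had pileups of 30 and 25 at 291 bp outside its nearer boundary, over MT levels of 1.87 and 2.20, with folds of 10.8 and 8.14. Both subunit genes thus had their only replicated summit beside the gene boundary. EIF2S3B, a copy of the gamma subunit gene, had no summit in either list.

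All 5 genes of EIF2B, the exchange factor of EIF2, had a replicated summit at a start, beside 53.0% of 15100 genes. EIF2B5, the catalytic subunit, had pileups of 32 for WT replicate 1 and 23 for WT replicate 2 over MT levels of 1.98 and 2.34, and folds of 11.1 and 7.19. EIF2B4 had 8.88 and 9.08 and EIF2B2 had 8.85 and 5.93, while EIF2B1 (6.27 and 4.48) and EIF2B3 (6.27 and 5.01) were lower. In WT replicate 1 the subunits thus ran from the lower quartile of all genes with a replicated summit, 6.27, to above the upper one, 10.

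EIF5, which activates GTP hydrolysis by EIF2, had 6.97 and 3.54, and EIF5B, which joins the large subunit, had 7.12 and 5.87. EIF6, which keeps the ribosomal subunits apart, was low at 4.74 and 3.54. EIF2D, an alternative carrier of the initiator tRNA, was the lowest of the 56 genes at 3.46 and 2.87, and its only replicated summit lay 22124 bp from the nearest annotated start. EIF2A, another alternative carrier, differed between the libraries: its start peak had a pileup of 35 and a fold of 8.70 in WT replicate 1, and a pileup of 14 and a fold of 3.29 in WT replicate 2, over MT levels of 3.14 and 3.56. It also had 15 summits in the list of WT replicate 1 and 1 in that of WT replicate 2.

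Among the EIF3 subunits, the scaffold of the initiating ribosome, 13 of 14 genes had a replicated summit, beside 68.8% of all genes, with median highest folds of 8.11 and 5.41. EIF3D, which can also bind the cap, had a pileup of 33 for WT replicate 1 and 21 for WT replicate 2 at 342 bp before its start, over MT levels of 2.05 and 2.41 (folds 11.1 and 6.44). EIF3A, the largest subunit, had pileups of 41 and 35 at 222 bp outside its boundary, over MT levels of 3.26 and 4.11, with folds of 9.85 and 7.04. EIF3L (9.78 and 5.93), EIF3J (9.06 and 5.95) and EIF3F (7.66 and 4.69) also peaked at a start or boundary. EIF3B (4.80 and 3.81), EIF3K (4.18 and 5.01), EIF3G (5.57 and 4.69) and EIF3H (5.54 and 5.41) were the lowest in WT replicate 1. In WT replicate 2 EIF3H stood at the median of the EIF3 genes. The only replicated summit of EIF3I (9.06 and 6.88) lay 4535 bp beyond its end, so it is not a start peak.

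EIF3M was the only EIF3 gene without a replicated summit, although each list had a peak near its start. WT replicate 1 had 8 summits at this gene, one of them 128 bp inside the gene with a pileup of 17 and a fold of 5.01. WT replicate 2 had 1, at 443 bp before the start, with a pileup of 9 and a fold of 2.93, and these peaks did not overlap. EIF3C and EIF3CL are near-identical copies on chromosome 16, so reads may be placed in either and their values are uncertain. EIF3C had highest folds of 8.11 and 5.95, and EIF3CL had 6.55 and 5.32.

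Of the 12 genes of cap binding and mRNA unwinding, 11 had a replicated summit, again beside 68.8% of all genes. EIF4E, the cap-binding protein, had the highest fold of all 62 genes in WT replicate 1. Its start peak, with the summit 728 bp before the start, was 3332 bp long and had a pileup of 43 for WT replicate 1 and 28 for WT replicate 2, over MT levels of 2.70 and 3.52 (folds 11.9 and 6.41). The paralogues of EIF4E were lower. EIF4E2, a competitor for the cap, had 6.62 and 5.01 at a start that lay near that of TIGD1. EIF4E1B, known from the germ line, had 4.62 and 3.46 at a summit 64 bp inside the neighbouring gene TSPAN17. EIF4E3 had only a peak of fold 2.81 in WT replicate 1, deep in the gene at 48135 bp from the nearest start.

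The scaffold genes differed in where their peaks lay. EIF4G2, whose product lacks the EIF4E site, had 9.01 and 5.84 at 404 bp before its start. EIF4G1, the main scaffold, had 5.23 and 3.76 at a start inside the annotated gene, 5465 bp from the boundary, and a higher peak (6.27 and 7.20) 949 bp beyond its end, which was 381 bp inside the start of FAM131A. EIF4G3, at 371 kb the longest of the 62 genes, had 5 replicated summits, all inside it and none within 1 kb of an annotated start. Its highest peak, 89129 bp from the nearest start, had a pileup of 31 for WT replicate 1 and 20 for WT replicate 2, over MT levels of 1.87 and 2.20 (folds 11.1 and 6.57).

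Of the helicase genes, EIF4A1 had start peak folds of 6.31 and 3.13 and EIF4A2 had 4.5 and 3.51, while EIF4A3, whose product marks exon junctions, had 8.36 and 8.14. The helicase cofactor gene EIF4B had 6.61 and 4.07 at 525 bp before its start. EIF4H, the other cofactor, had 5 replicated summits, and the nearest to its start lay 1863 bp before it. Of the repressors of the cap complex, EIF4EBP1, the target of mTOR, had 4 replicated summits, the highest of 9.06 and 9.39 at 396 bp inside a boundary, with pileups of 25 for WT replicate 1 and 29 for WT replicate 2 over MT levels of 1.87 and 2.20. EIF4EBP2 had 7.11 and 4.98 in overlapping peaks with summits 1670 bp apart. EIF4ENIF1, which carries EIF4E into the nucleus, had 7.32 and 4.69 at 313 bp before a start. Its highest folds, 7.51 and 5.08, were at a summit 2744 bp outside the gene, 173 bp inside the start of the neighbour SFI1. EIF4EBP3, at 1.92 kb the shortest of the 62 genes, had no summit in either list.

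Of the 10 elongation genes, 8 (80.0%) had a replicated summit, not far from the 68.8% of all genes, with median highest folds of 9.23 and 6.87. EEF1A1, which delivers aminoacyl-tRNA, had overlapping peaks upstream with a pileup of 39 for WT replicate 1 and 32 for WT replicate 2, over MT levels of 2.80 and 2.20 (folds 10.5 and 10.3). The WT replicate 1 peak reached the start, with its summit 410 bp before it, while the WT replicate 2 summit lay 2218 bp further upstream and its peak did not reach the start. Its paralogue EEF1A2, known from muscle and neurons, had 4 peaks in WT replicate 1, of folds 3.83 to 6.62, and none in WT replicate 2. The start peak of EIF5A, which relieves stalled ribosomes, had pileups of 36 and 36 over MT levels of 3.24 and 5.29, with folds of 8.72 and 5.88. The highest folds of EIF5A, 9.75 and 7.51, were at a summit 2714 bp beyond its end. That summit lay 183 bp inside the start of the neighbour GPS2. EIF5A2 had 1 peak, in WT replicate 1, 91 bp inside the gene with a pileup of 14 and a fold of 5.23. EIF5AL1, a copy of EIF5A, had its only summit 2902 bp before its start (6.97 and 6.88), and reads of such copies may be misplaced.

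Among the exchange factors of EEF1A, EEF1B2 had 7.95 and 6.86, and EEF1D had 6.98 and 5.48. The summit at EEF1B2 lay 142 bp before its start and 309 bp before that of NDUFS1. EEF1G had its highest peak, with pileups of 46 for WT replicate 1 and 33 for WT replicate 2 over MT levels of 3.73 and 4.19 (folds 9.94 and 6.55), 3063 bp beyond its end and none at its start. EEF1E1, whose product belongs to the tRNA synthetase complex, had 10.8 and 5.95 at its start. EEF2, the translocase, had no replicated summit within 1 kb of its start. Its nearest lay 1043 bp before it, with pileups of 44 for WT replicate 1 and 26 for WT replicate 2, over MT levels of 4.66 and 3.52 (folds 7.95 and 5.97), and the summits of the libraries were 1234 bp apart. All 6 genes of the enzymes that methylate elongation factors had a replicated summit, beside 68.8% of all genes, but EEF1AKMT4 and EEF1AKMT4-ECE2 count through the same peak. EEF1AKMT1 had the highest fold of all 62 genes in WT replicate 2, with a pileup of 26 for WT replicate 1 and 39 for WT replicate 2 over MT levels of 1.87 and 2.20 (folds 9.41 and 12.5). EEF1AKMT3 had 11.5 and 8.76, EEF1AKMT2 had 7.77 and 8.18 and EEF2KMT had 6.18 and 6.32.

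**Figure D3:**
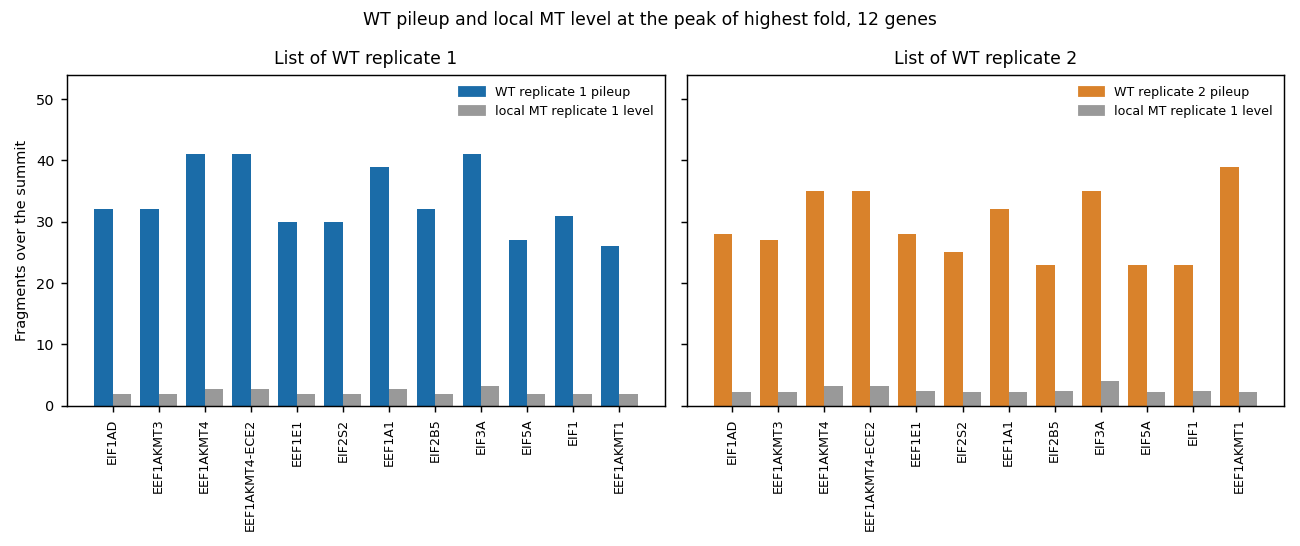
Bars give, on the y axis, the fragments over the summit in each WT library (coloured, left of each pair) and the local MT replicate 1 level (grey) at the peak of highest fold of the 12 genes with the best ranks in both lists. WT pileups run from 26 to 41 in WT replicate 1 and from 23 to 39 in WT replicate 2, and MT levels from 1.87 to 3.26 and from 2.20 to 4.11. For EIF5A the peak shown lies beyond its end, by the start of the neighbour GPS2. The peak is chosen in each list separately, and for EEF1E1 the lists show different sites. For WT replicate 1 it is the start peak of EEF1E1, and for WT replicate 2 a peak far inside the gene.

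Several replicated peaks were shared with neighbours. Of the 52 sites at a start or boundary, 12 lay within 1 kb of the annotated start of another protein-coding gene, 2 of them the shared start of EEF1AKMT4 and EEF1AKMT4-ECE2. Neighbours without a promoter entry could not be counted, so 12 is a lower bound. Among the sites not counted, the summit at EIF2B4 lay 414 bp from the gene SNX17. The highest summit at EEF1AKMT3 lay 279 bp from METTL1, and a summit at EIF3H lay 340 bp from UTP23. The summit at EIF1AD lay 182 bp before its start and 164 bp before that of BANF1. The summit at EIF2S1 lay 338 bp before the start of ATP6V1D and inside the annotated gene GPHN. At such starts the peak cannot be given to either gene. At 4 genes, EIF1AD, EIF2S1, EIF4E2 and EIF4E1B, every site lay nearer to another protein-coding gene. On chromosome 3, EIF2B5 (184135358 to 184145311), EEF1AKMT4 (184249672 to 184258759) and EIF4G1 (184314606 to 184335358) lie close together in hg38. EEF1AKMT4 peaked 578 bp inside its start, at pileups of 41 for WT replicate 1 and 35 for WT replicate 2 over MT levels of 2.81 and 3.30 (folds 11 and 8.36). That peak and the one at EIF2B5 were each higher than the start peak of EIF4G1 in both lists.

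Beyond the gene ends, 13 of the 49 genes with a known strand (26.5%) had a replicated summit within 5 kb, and 14.5% of all 15100 genes did. When summits within 1 kb of another annotated start were set aside, 9 of the 49 (18.4%) and 8.62% of all genes remained. Within 1 kb of the end itself the shares were 7 of 49 (14.3%) and 5.21%. In the 1 to 5 kb before the gene they were 5 of 49 (10.2%) and 8.97%, and 4 of 49 (8.16%) and 7.07% away from other starts. Of the 8 elongation genes with a known strand, 5 had a summit beyond the end, namely EEF1A1, EEF1B2, EEF1G, EEF2 and EIF5A. Away from other annotated starts 4 of the 8 remained, without EEF2. The remaining summit of EIF5A lay inside the neighbour GPS2, and its WT replicate 2 peak is also that of the summit by the GPS2 start.

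The peak beyond EEF1A1 was 7593 bp long, with its summit 2393 bp past the gene end (pileups of 27 for WT replicate 1 and 22 for WT replicate 2 over MT levels of 3.26 and 2.94, folds of 6.57 and 5.84). EEF2 had a peak of 5219 bp, with its summit 4261 bp past the end and 696 bp before the start of the neighbour DAPK3 (6.82 and 6.44). EIF1 had one of 4248 bp, 743 bp past its end (8.01 and 5.63). These positions and lengths, and the covered shares that follow, are those of WT replicate 1. The overlapping WT replicate 2 peaks were 5364 bp long at EEF1A1, 1445 bp at EEF2 and 322 bp at EIF1. The WT replicate 2 summits lay 525 bp away at EEF1A1, 3151 bp at EEF2 and 2921 bp at EIF1. At EEF2 no replicated peak overlapped the gene itself, and at EEF1A1 28.1% of the gene was covered. The longest WT replicate 1 peak of these genes, 9080 bp with folds of 8.68 and 8.65, lay inside EEF1E1, where the overlapping WT replicate 2 peak was 675 bp long. EEF1E1 was covered over 33.1% of its length, followed by EIF1 (28.3%) and EEF1A1. Of the 111 distinct replicated peaks of these genes, 4 (3.60%) were at least 4000 bp long in WT replicate 1, beside 1.96% of all 31815 replicated peaks. At least 3000 bp was reached by 7 (6.31%, beside 5.16%) and at least 5000 bp by 3 (2.70%, beside 0.877%). These are few peaks, and no difference was tested.

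**Figure D4:**
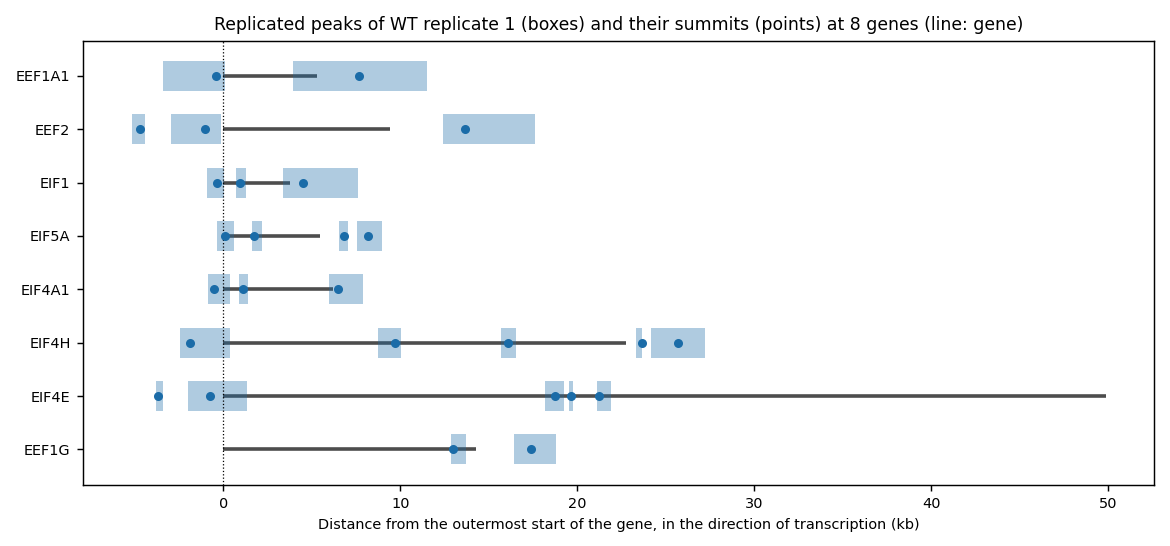
For 8 genes chosen after their peaks were seen, the line is the gene, boxes are replicated peaks of WT replicate 1 and points their summits, along the distance from the outermost start in kb in the direction of transcription. The summits of EEF1A1 and EEF2 lie before the start and beyond the end, and EIF4H and EIF4E also have summits inside the gene.

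Within genes, 32 of the 62 (51.6%) had a replicated summit within the gene itself, beside 48.2% of all genes. Sites at a start or boundary (52 sites) had median folds of 7.49 for WT replicate 1 and 5.91 for WT replicate 2, and the 34 sites inside a gene and off the start had 4.57 and 3.94. The 26 sites outside the gene and off the start lay between, at 6.64 and 5.21. These medians were not computed over all genes. The MT levels differed less between starts and gene interiors, with medians of 2.05 and 2.35 at starts and 2.54 and 2.94 inside. At starts 23 and 22 of the 52 sites were at the lowest MT level of their list, and inside 9 and 7 of the 34. The level cannot fall below that, which limits this comparison. At least 3 replicated summits were found at 13 of the 62 genes (21.0%), beside 16.4% of all genes. EIF3E and EIF3H, both on chromosome 8, had 6 each, and EIF3A, EIF4E, EIF4G3 and EIF4H had 5 each. EIF3H had 37 summits in WT replicate 1 and 13 in WT replicate 2, and EIF3E had 26 and 7. WT replicate 1 gave more summits at 38 genes and fewer at 5, so the shallower WT library gave the longer list here as in the whole series. The highest WT replicate 1 peak of EIF3E lay 5612 bp inside the gene (9.69 and 4.39), while its highest fold in WT replicate 2, 5.05, was at another site, and all folds at EIF3H were at or below 5.54.

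**Figure D5:**
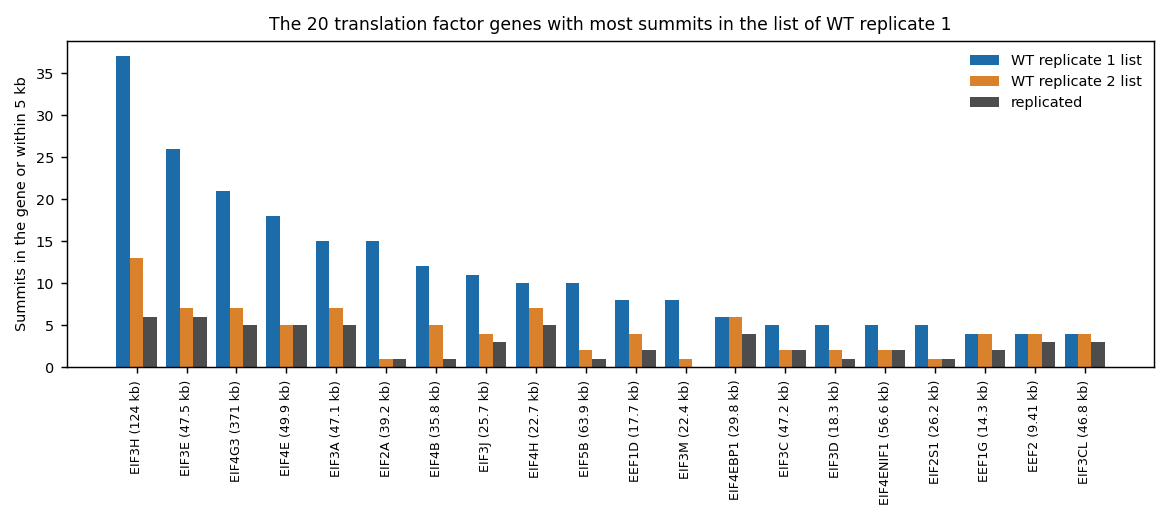
Bars give, on the y axis, the summits in the gene or within 5 kb in WT replicate 1, WT replicate 2 and the replicated ones, for the 20 translation factor genes with most summits in WT replicate 1 (gene length in kb in brackets). EIF3H leads with 37, 13 and 6, and EIF2A has 15, 1 and 1.

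Of 47 other genes of cytosolic translation and its control, 44 (93.6%) had a replicated summit, beside 68.8% of all autosomal protein-coding genes, with median highest folds of 7.64 and 5.95, and DENR, PPP1R15B and TSC1 had none. All 5 kinases left out by name had one. EIF2AK4, the sensor of uncharged tRNA, had 11.5 and 5.95, EIF2AK3 of the unfolded protein response had 8.90 and 6.17, and EIF2AK1, the haem-regulated kinase, had 8.01 and 8.76. EIF2AK2, the sensor of double-stranded RNA, was lower at 4.65 and 4.07, and EEF2K had 9.47 and 7.11. RPTOR, which brings mTOR to its substrates, had 15 replicated summits over 422 kb (11.3 and 8.45), and LARP1, a repressor of translation factor mRNAs, had 5 (10.1 and 9.08). ATF4, the effector of EIF2 phosphorylation, had 6.93 and 4.60, and the release factor genes ETF1 (7.05 and 3.75) and GSPT1 (6.96 and 5.58) were of similar size.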

How the data were processed

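GapR-GFP was mapped by CUT&RUN in HCT116 cells with paired-end reads, in 2 WT and 2 MT libraries. Titles gave the groups. Tools in the submitters' processing notes are Bowtie2 2.3.4, MACS2 2.1.2 and ChIPseeker 1.28.3, with build hg38. Per the file headers, the authors called narrow peaks in each WT library against MT replicate 1 with q-values to 0.05, peaks of 200 bp or longer and at most 2 fragments at 1 position, so very strong sites may be flattened. The deposited pileup is a signal, the coverage by WT fragments at the summit. All pileups were whole numbers and were taken as unscaled. The deposited fold enrichment is a ratio of pileup to local control level with 1 added to both, and the local MT level was computed back from it, on that reading. The lowest such level was 1.87 for WT replicate 1 and 2.20 for WT replicate 2, the background of each library, where the fold cannot show a lower MT level. This held within 1% for 37.0% and 32.9% of replicated peaks. The authors' −log10 q-value entered 1 alternative, and their −log10 p-value was not used.

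Python 3.11.15, numpy 2.4.6 and pandas 2.3.3 were used. Peaks were paired by an overlap of at least 1 bp. Genes came from RefSeq (GRCh38.p14), matched by symbol, and starts and strands from its promoter table, which had an entry for 49 of the 62 genes. Distances are to the nearest annotated start. The code was tested on simulated lists. No test between groups or of the gene list was run: both lists share 1 control library, and genes are not replicates. Values of each role group and of the 12 genes with the best worse rank of highest fold in both lists were named by rule, as were the genes with most replicated summits, the largest covered shares or no replicated summit. The members, lists and rules were chosen with earlier results of these data known. A replicated site stands at the WT replicate 1 summit, and the WT replicate 2 summit may lie elsewhere in the overlapping peak. Depth limits low peaks, since a pileup of 7 to 46 fragments stood behind the sites described.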

Additional observations from a re-analysis of the deposited data

How the results depend on the processing

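In all, 15 alternatives gave 71 values, of which 59 kept their size, within 1.5 times for counts and within 1.39 (the SD of the median fold between the lists) for medians. With only peaks of −log10 q at least 10, 28 of the 62 translation factor genes had a replicated summit and 22 at the start, with 20 of 47 partners and 30.9% of all genes. This share of all genes, like those that follow, is for a summit in the gene or its window. The share of all genes with a summit at the start was not computed in the alternatives, so the start counts have no background here. Keeping only peaks whose MT level was the lowest of their list, these values were 25, 19, 23 and 33.4%. With summits inside the gene only, 32 genes had one and the median highest folds were 6.55 (WT replicate 1) and 4.82 (WT replicate 2). With an overlap of 50% of both peaks, 28 partners had one and 46 of the 62 genes, beside 51.7% of all genes. Every other count stayed within 1.5 times. Leaving out 1 WT library gave 57 to 60 genes, 47 to 53 at the start, 44 to 47 partners and 70.5 to 79.5% of all genes, with median folds of 7.86 (WT replicate 1 alone) and 6.26 (WT replicate 2 alone). Leaving out a WT library leaves no fold for that library, so those medians have 1 value each. Counting only summits nearest to the gene itself, an alternative chosen after the data were seen, gave 52 genes, beside 61.2% of all genes. No paired analysis was possible because both lists use MT replicate 1 and no test was run. The cause of each change was not tested.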

Other observations

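The initiation factor genes on the X chromosome, left out by the choice of autosomes, also carried replicated summits, as did 68.8% of all autosomal protein-coding genes. EIF2S3, the gamma subunit of EIF2, had 2 replicated summits with highest folds of 7.32 (WT replicate 1) and 5.32 (WT replicate 2), and EIF1AX, a factor of scanning, had 1, with 5.10 and 4.48.

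Among the enzymes that build the modified residues of EIF5A and EEF2, all 8 genes of the partner list had a replicated summit, beside 68.8% of all autosomal protein-coding genes. DHPS and DOHH, which make hypusine, had highest folds of 6.35 and 8.84 in WT replicate 1 and of 3.76 and 6.15 in WT replicate 2. Of the diphthamide genes, DPH1 was the highest at 10.5 and 8.14, DPH2 was the lowest in WT replicate 1 (5.25 and 4.80), and DPH3 in WT replicate 2 (8.71 and 4.38).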
